A study of Mus musculus with 2 samples.

Results

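The Schlafen genes are a family of interferon-responsive genes that lie side by side in the mouse genome. Described here are its 6 members Slfn1, Slfn2, Slfn4, Slfn5, Slfn8 and Slfn9, found by their gene symbols among the 32285 genes of the deposited count matrices. The members were selected on earlier values from these libraries, namely their UMIs by cell class and the difference between the libraries. Their levels and ratios are therefore given as a description, with no test. The other genes whose symbol starts with Slfn (10 such genes in all, with the members) are given at the end of the account.

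The study asked what CD200R1, an inhibitory receptor of myeloid cells, does in neuroinflammation. It profiled single brain cells by droplet RNA sequencing with tags at the 3′ end of each transcript, counted as unique molecular identifiers (UMIs). There were 2 libraries, 1 labelled wild type (WT) and 1 labelled CD200R1-/- (KO), so no group has a replicate and no difference below has a replicate check. Both came from untreated C57BL/6J mice aged 18 months, whose brains were perfused with PBS, dissociated, and enriched for CD11b-positive cells with magnetic particles. The number of mice behind a library is not stated in the labels. Any difference between the libraries therefore cannot be told apart from a difference between the animals or preparations. Every interval given with a level, ratio or share is a 95% interval that covers counting error only.

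Schlafen proteins share a conserved core domain, and the longer ones carry a helicase-like region in addition. Many of the genes are switched on by type I interferon, which signals through the receptor subunits IFNAR1 and IFNAR2, the kinases JAK1 and TYK2, and a complex of transcription factors. This complex binds a DNA element named the interferon-stimulated response element (ISRE). Slfn1, the founding member, restrains the growth of thymocytes. Slfn2 binds transfer RNAs and protects them from cleavage, and mice without a working Slfn2 lose T cells and monocytes because these cells fail to stay quiescent. Slfn4 is a gene of myeloid cells, Slfn5 is a long nuclear member, and Slfn8 and Slfn9 are a pair of closely related long members.

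The members lie on chromosome 11 within 239 kb (GRCm38, positions 82951349 to 83190216). Their order is Slfn5 (ENSMUSG00000054404, plus strand, 82951349 to 82964840), Slfn9 (ENSMUSG00000069793, minus strand, 82978390 to 82991830), Slfn8 (ENSMUSG00000035208, minus strand, 83002158 to 83020810), Slfn2 (ENSMUSG00000072620, plus strand, 83065112 to 83070678), Slfn1 (ENSMUSG00000078763, plus strand, 83116849 to 83122670) and Slfn4 (ENSMUSG00000000204, plus strand, 83175186 to 83190216). All 6 are protein-coding.

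The 250 bases before the RefSeq transcription start (build GRCm38.p6) are shown for the 4 members with the most UMIs in microglia-like cells, because 3 of them hold the core of the ISRE and the fourth does not. The core was searched as TTTCNNTTTC and, on the other strand, GAAANNGAAA, and it is in capitals. Each sequence runs 5′ to 3′ on the strand of its gene.
Slfn5: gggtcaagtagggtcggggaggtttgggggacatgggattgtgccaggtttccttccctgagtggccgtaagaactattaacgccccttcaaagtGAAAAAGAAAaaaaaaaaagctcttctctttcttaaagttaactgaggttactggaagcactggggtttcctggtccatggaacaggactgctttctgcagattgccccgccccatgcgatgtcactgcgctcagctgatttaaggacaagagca
Slfn9: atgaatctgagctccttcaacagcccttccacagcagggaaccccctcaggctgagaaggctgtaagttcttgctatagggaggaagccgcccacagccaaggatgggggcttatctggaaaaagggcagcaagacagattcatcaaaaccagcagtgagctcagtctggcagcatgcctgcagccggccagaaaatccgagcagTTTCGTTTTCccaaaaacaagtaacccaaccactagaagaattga
Slfn8: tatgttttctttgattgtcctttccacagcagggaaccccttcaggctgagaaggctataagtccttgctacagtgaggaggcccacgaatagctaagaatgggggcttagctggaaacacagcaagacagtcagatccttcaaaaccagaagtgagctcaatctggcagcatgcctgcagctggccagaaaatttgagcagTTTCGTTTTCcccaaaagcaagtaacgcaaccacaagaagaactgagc
Slfn2: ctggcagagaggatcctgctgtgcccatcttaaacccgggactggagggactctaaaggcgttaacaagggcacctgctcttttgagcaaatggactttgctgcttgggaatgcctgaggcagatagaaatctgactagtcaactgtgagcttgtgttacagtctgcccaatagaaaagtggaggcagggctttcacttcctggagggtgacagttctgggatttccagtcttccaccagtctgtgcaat
These stretches lie at chr11:82951852-82952101 (Slfn5, plus strand), chr11:82991831-82992080 (Slfn9, minus strand), chr11:83020811-83021060 (Slfn8, minus strand) and chr11:83064862-83065111 (Slfn2, plus strand). The core begins 155 bases before the start of Slfn5, 45 before that of Slfn9 and 48 before that of Slfn8. The Slfn5 stretch lies inside the gene positions given above, because the RefSeq start used is downstream of their first base. Slfn8 has another RefSeq start, and the core begins 136 bases before that one. These distances therefore depend on the start used. In windows of 250 bases before to 50 after a start, 3.44% of all 32851 RefSeq windows hold it. By gene, 3.99% of 27025 genes hold it in any of their windows. Of the 19 type I interferon-induced genes that could be matched, 13 hold it in any window (68.4%). The Slfn2, Slfn1 and Slfn4 windows do not hold these letters. The aligned windows of Slfn8 and Slfn9 are identical at 252 of 288 positions (87.5%).

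The library labelled WT held 18228 cell barcodes and 127429919 UMIs, and the library labelled KO 19159 barcodes and 131196245 UMIs. After filtering, 16357 and 16935 cells were kept. The 2 libraries share 103 barcodes, and leaving those cells out changed no call on a member. The doublet caller marked 1.47% and 4.10% of the cells, against 14.6% and 15.3% expected from the cell numbers, so doublets may remain. Clusters were named from marker genes, and the 12 classes that reached 50 cells in both libraries are compared, each called by the type its markers resemble. A further 8 clusters had no clear name and held 39.1% and 32.6% of the kept cells. Although the cells were enriched for CD11b, the kept cells hold many non-myeloid cells, among them 2073 and 2184 endothelial-like cells beside 3589 and 4158 microglia-like cells (WT and KO). Cd200r1 itself was at 12.7 CPM (UMIs of a gene divided by all UMIs of the same cells and scaled as counts per 1000000) in WT and 12.0 in KO. A 3′ tag outside a deleted stretch does not check a deletion, so the labels are taken as given.

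RNA of other cells was present in every class. The median marker of microglia stood at 58.4% (WT) and 61.9% (KO) of its microglial level in neutrophil-like cells, at 34.5% and 39.3% in monocyte-like cells, at 25.2% and 34.9% in astrocyte-like cells, and at 5.94% and 5.88% in endothelial-like cells. In CNS-associated macrophage-like cells it stood at 51.6% and 62.3%. The level that microglial and endothelial RNA would carry into a class was estimated from these shares, and it is given beside many of the levels below. A cell is called mixed where the markers of some other class had at least as many UMIs as the markers of its own class. Cells that are not mixed can still hold UMIs of such markers.

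All 6 members had a higher CPM over the kept cells of the library labelled KO. Slfn2 was at 61.3 CPM in WT and 155 in KO, Slfn5 at 116 and 179, Slfn8 at 25.7 and 58.8, Slfn1 at 4.13 and 6.16, Slfn9 at 2.90 and 7.62, and Slfn4 at 1.40 and 5.39. The ratio of KO to WT ran from 1.49 (Slfn1) to 3.84 (Slfn4). The mix of cells differs between the libraries, so the classes are taken one by one below.

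**Figure D1:**
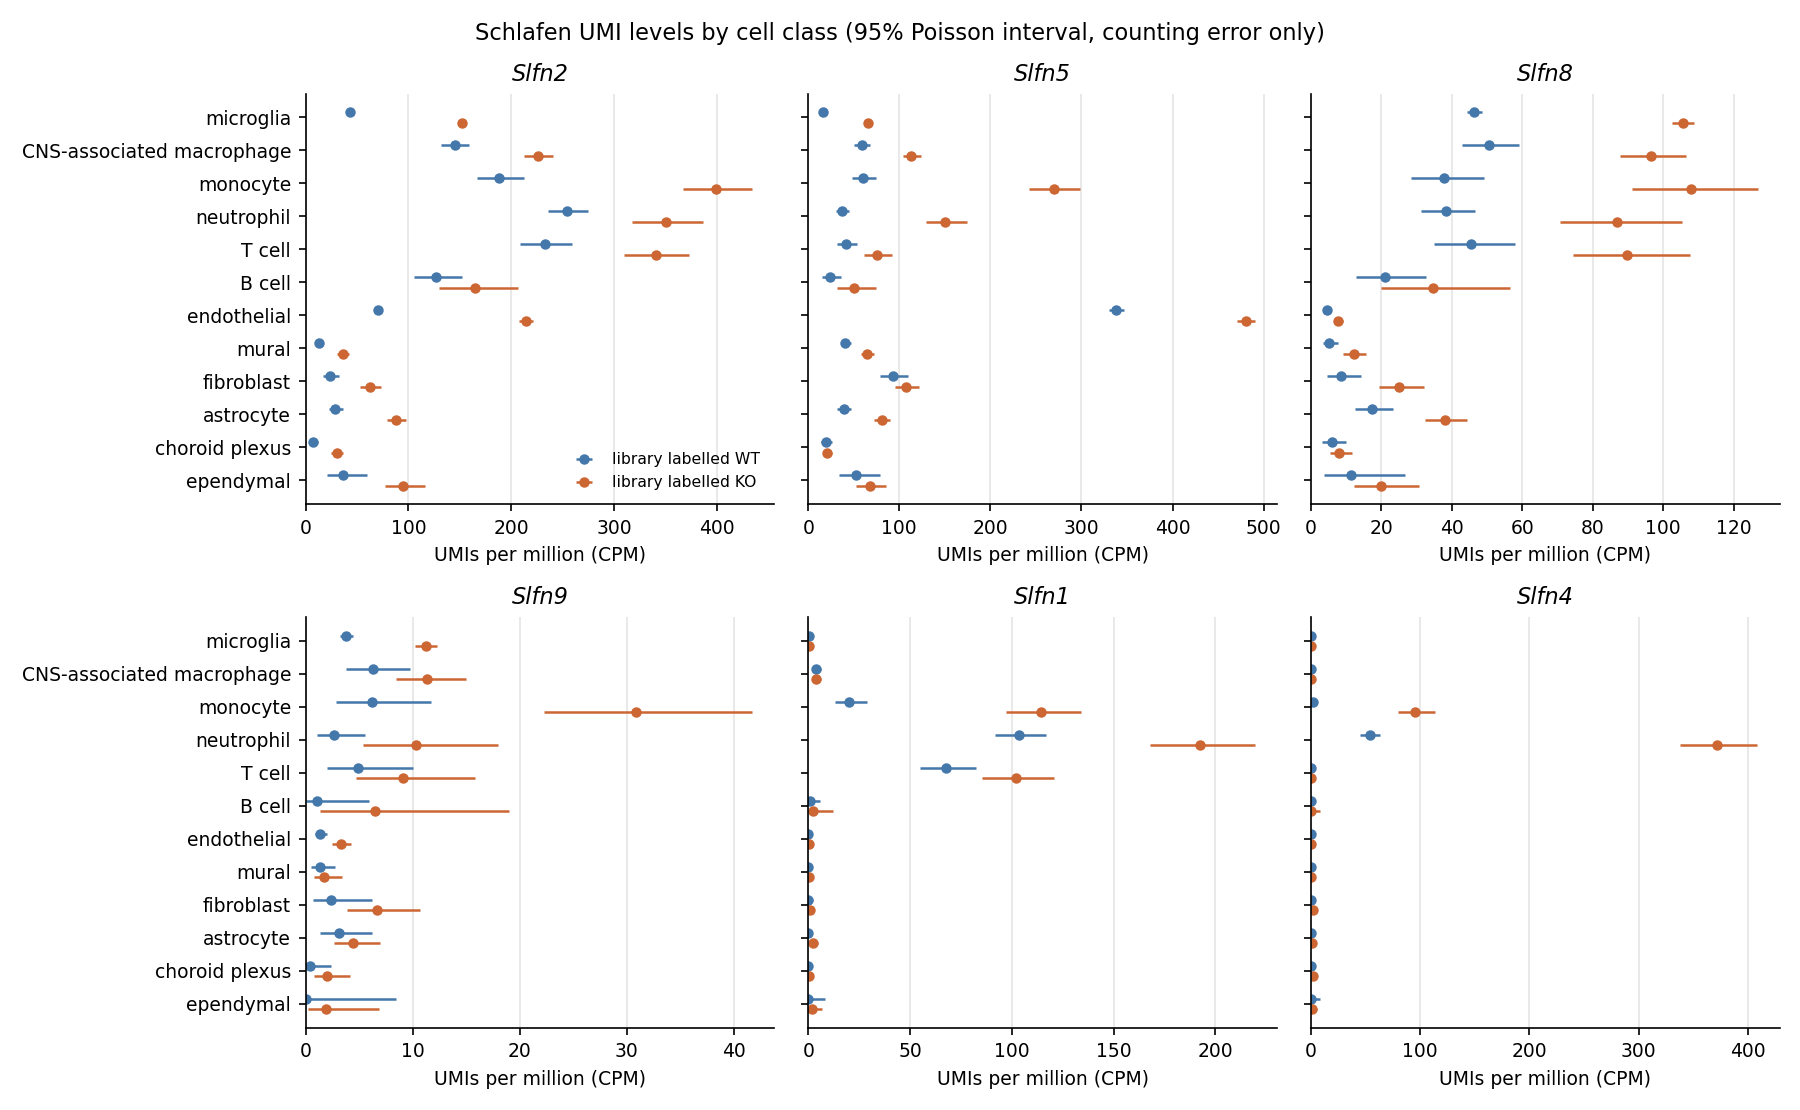
Level of each member (CPM, linear axis from 0 with its own range in each panel) in the 12 cell classes, with WT and KO as separate points and bars for the 95% counting interval. Slfn5 is highest in endothelial-like cells, and Slfn4 in neutrophil-like cells.

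A gene was counted as higher where its log2 ratio of CPM plus 10 was at least 0.32, among genes with at least 20 UMIs over both libraries. In microglia-like cells 4 of the 5 members measured were higher in KO, against 1.09% of all genes measured. Of these 4, 3 were higher by at least 2 times, against 0.168% of all genes. By the first rule the counts were 6 of 6 in monocyte-like cells (12.9% of all genes), 5 of 5 in neutrophil-like cells (12.9%), 4 of 5 in CNS-associated macrophage-like cells (5.49%), 4 of 4 in T cell-like cells (18.1%) and 3 of 3 in B cell-like cells (18.2%). In the non-haematopoietic classes they were 2 of 4 in endothelial-like cells (1.68%), 3 of 3 in mural-like cells (4.06%), 3 of 4 in fibroblast-like cells (9.52%), 3 of 4 in astrocyte-like cells (11.1%), 1 of 3 in choroid plexus-like cells (3.21%) and 2 of 3 in ependymal-like cells (18.8%). No member was lower by the same rule in any of the 12 classes. Of all genes measured, the share that was lower was 1.22% in microglia-like, 7.36% in CNS-associated macrophage-like, 15.2% in monocyte-like, 26.1% in neutrophil-like, 11.4% in T cell-like and 28.1% in B cell-like cells. It was 1.41% in endothelial-like, 3.68% in mural-like, 11.0% in fibroblast-like, 10.0% in astrocyte-like, 15.8% in choroid plexus-like and 21.5% in ependymal-like cells. Since the members were chosen with this contrast in view, nothing is read from these counts. The share of all genes that was higher ran from 1.09% in microglia-like to 18.8% in ependymal-like cells. Microglia-like cells held 39656100 UMIs in WT and 41776623 in KO, and ependymal-like cells 437616 and 1050408. The minimum of 20 UMIs thus stands for a much lower CPM in microglia-like cells, where the 10 CPM added weigh more. The shares are therefore not alike between classes, and the part of depth in them was not tested.

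**Figure D2:**
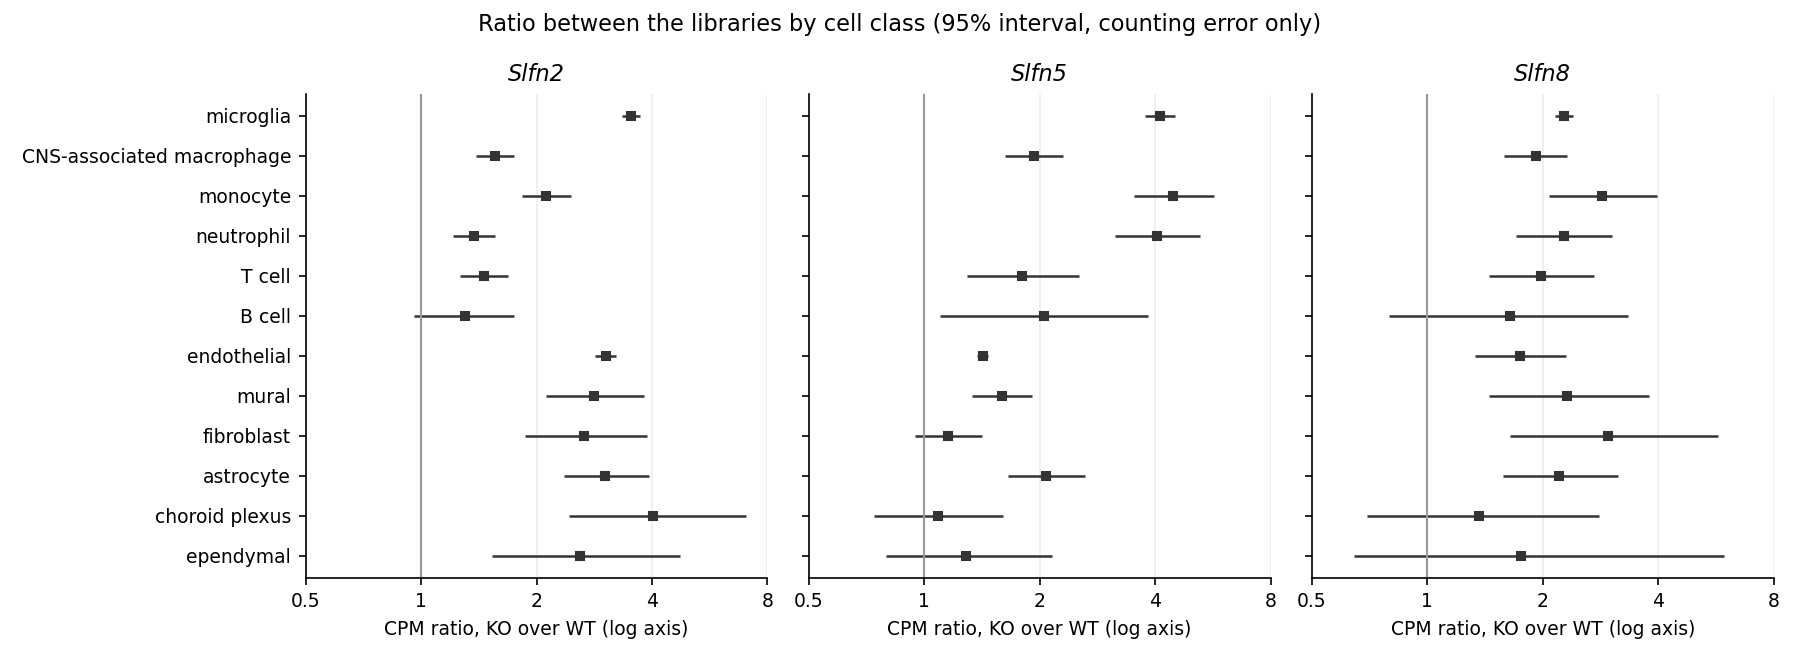
Ratio of the CPM in KO to that in WT (log axis) for Slfn2, Slfn5 and Slfn8 in the 12 cell classes, with bars for the 95% counting interval and a vertical line at a ratio of 1. All points lie to the right of the line, and the intervals of Slfn2 in B cell-like cells, of Slfn5 in fibroblast-like, choroid plexus-like and ependymal-like cells and of Slfn8 in B cell-like, choroid plexus-like and ependymal-like cells include 1.

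Slfn2 is the tRNA-binding member. In the library labelled WT its level was highest in neutrophil-like cells at 255 CPM (interval 236 to 275) and T cell-like cells at 233 (209 to 259), whose intervals overlap. Monocyte-like cells followed at 189, CNS-associated macrophage-like cells at 145 and B cell-like cells at 127. Endothelial-like cells were at 70.9 and microglia-like cells at 43.3, lower than all the other leukocyte classes. The lowest level was 7.56 CPM in choroid plexus-like cells, where carried RNA would give 9.65.

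In microglia-like cells Slfn2 had 1716 UMIs in WT and 6376 in KO, or 43.3 and 153 CPM. The ratio was 3.53 (3.34 to 3.72). The share of microglia-like cells with a Slfn2 UMI was 26.0% in WT and 63.2% in KO. With each cell thinned to 1000 UMIs the shares were 4.15% and 14.4%. In choroid plexus-like cells, the class with the lowest level, the thinned shares were 1.17% and 4.71%, below those of microglia-like cells in both libraries. The median microglia-like cell held 8197 UMIs in WT and 6783 in KO, so the KO cells were not the deeper ones. The 3 microglia-like clusters gave ratios of 3.80, 4.48 and 3.04.

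In endothelial-like cells Slfn2 was at 70.9 CPM in WT and 214 in KO, with a ratio of 3.03 (2.85 to 3.22). The share of these cells with a Slfn2 UMI was 34.1% and 60.5%. A cluster led by genes of arterial type, which had no clear name, was at 59.8 and 181 CPM. Slfn2 in WT endothelial-like cells was thus above that in WT microglia-like cells, and the same order held in KO.

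In the other myeloid classes the Slfn2 ratios were smaller and the WT levels higher. CNS-associated macrophage-like cells were at 145 and 226 CPM, with a ratio of 1.56 (1.39 to 1.75). Carried RNA would give 26.0 and 101 there, and the ratio was 1.56 (1.34 to 1.83) without mixed cells. Monocyte-like cells were at 189 and 400, with a ratio of 2.12. For neutrophil-like cells the levels were 255 and 351 and the ratio 1.38 (1.21 to 1.56). Without the mixed neutrophil-like cells the ratio was 1.16 (1.02 to 1.33), which no longer meets the fold rule. The call was also lost with cells thinned to 1000 UMIs and with the mean over cells, 3 of 15 alternatives in all, and the lowest log2 ratio was 0.069 with the mean over cells. The order of the classes therefore differs between the libraries, with neutrophil-like cells highest in WT and monocyte-like cells highest in KO, where the interval of the monocyte-like level (367 to 435) overlaps that of the neutrophil-like level (317 to 386).

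In T cell-like cells, the class in which Slfn2 is best known, it was at 233 CPM in WT and 340 in KO, with a ratio of 1.46 (1.27 to 1.69). RNA carried in from microglia and endothelium would give 13.3 and 47.6 CPM. Mixed cells made up 30.7% of the WT and 60.8% of the KO T cell-like cells. Without those cells the levels were 278 and 374, with a ratio of 1.34 (1.11 to 1.63). For B cell-like cells the levels were 127 and 165 CPM, and the interval of their ratio of 1.30 (0.961 to 1.75) includes 1.

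Slfn5, a nuclear member, had its highest level in endothelial-like cells in both libraries. It was at 338 CPM (330 to 346) there in WT and 481 (470 to 491) in KO, with a ratio of 1.42 (1.38 to 1.47). Of these cells, 74.8% and 79.3% had a Slfn5 UMI. Endothelial-like cells held 51.5% of all Slfn5 UMIs of the kept WT cells and 40.7% of those of the KO cells. In the cluster led by arterial-type genes Slfn5 was at 226 and 377 CPM, with a ratio of 1.67.

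The next classes for Slfn5 in WT were far below. Fibroblast-like cells were at 93.2 CPM, monocyte-like cells at 60.6, CNS-associated macrophage-like cells at 58.8 and ependymal-like cells at 52.6, and the intervals of the last 3 overlap. Carried RNA would give 68.8 in fibroblast-like, 42.3 in monocyte-like, 25.9 in CNS-associated macrophage-like and 73.8 in ependymal-like cells, where it exceeds the measured level. Microglia-like cells had the lowest Slfn5 level of the 12 classes in WT, 16.01 CPM (14.8 to 17.3), which the interval of choroid plexus-like cells (14.1 to 25.8) overlaps. In KO the microglia-like level was 65.9 (63.5 to 68.4), with a ratio of 4.12 (3.77 to 4.49). The share of microglia-like cells with a Slfn5 UMI was 10.7% and 34.8%. The ratio was of like size in monocyte-like cells, at 60.6 and 270 CPM (4.45, 3.52 to 5.68), and in neutrophil-like cells, at 37.1 and 150 (4.05). Carried RNA would give 42.3 and 72.5 in the monocyte-like and 28.0 and 71.6 in the neutrophil-like cells. CNS-associated macrophage-like cells were at 58.8 and 113, with a ratio of 1.93. Carried RNA would give 25.9 and 53.9 there, and the ratio was 2.48 without mixed cells.

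Slfn8, a long member with a helicase-like region, had its highest levels in leukocyte classes in these libraries. In WT its 5 highest levels were 50.5 CPM in CNS-associated macrophage-like cells, 46.4 in microglia-like cells, 45.3 in T cell-like cells, 38.2 in neutrophil-like cells and 37.8 in monocyte-like cells, with overlapping intervals for neighbours in this order. In microglia-like cells it had 1841 UMIs in WT and 4407 in KO, or 46.4 and 105 CPM, with a ratio of 2.27 (2.15 to 2.40). A Slfn8 UMI was found in 31.2% of these cells in WT and 50.4% in KO. Microglia-like cells held 62.1% and 64.6% of all Slfn8 UMIs.

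Other leukocyte classes were also higher for Slfn8 in KO, with part of each level matched by carried RNA. Levels were 50.5 and 96.7 CPM in CNS-associated macrophage-like cells (ratio 1.91), 37.8 and 108 in monocyte-like cells (2.85) and 45.3 and 89.8 in T cell-like cells (1.98). Carried RNA would give 24.2 and 65.9 in the first, 16.5 and 42.2 in the second and 5.87 and 22.8 in the third. Of the CNS-associated macrophage-like cells, 44.6% and 58.6% were mixed. Without them the ratio was 1.59 (1.14 to 2.23). In neutrophil-like cells the levels were 38.2 and 86.8, where carried RNA would give 27.4 and 65.8. B cell-like cells, also leukocytes, were lower at 21.2 and 34.7, where it would give 6.38 and 13.2. Fibroblast-like cells were at 8.47 and 25.1, where it would give 5.13 and 12.5, and astrocyte-like cells were at 17.3 and 38.1. Endothelial-like cells had the lowest Slfn8 level in both libraries, 4.46 and 7.79 CPM, of which microglial RNA would carry in 2.76 and 6.20. Choroid plexus-like cells were at 5.88 and 8.03 on 14 and 28 UMIs, and WT mural-like cells at 5.25 on 28 UMIs. Counting error does not separate these levels from the endothelial-like ones. Carried RNA would give 7.11 and 11.7 in the choroid plexus-like and 6.74 in the WT mural-like cells. Endothelial-like cells thus stood at the top of the order of classes for Slfn5 and among the lowest classes for Slfn8.

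Slfn9, the close relative of Slfn8, was found at lower levels in the same classes. In microglia-like cells it had 150 UMIs in WT and 470 in KO, or 3.78 and 11.3 CPM, with a ratio of 2.97 (2.47 to 3.60). Its levels were 6.27 and 11.4 CPM in CNS-associated macrophage-like cells, where carried RNA would give 2.02 and 7.10. Monocyte-like cells were at 6.19 and 30.8, on 9 and 42 UMIs, with a ratio of 4.98. Endothelial-like cells were at 1.37 and 3.30. The transcripts of Slfn8 and Slfn9 share 4.97% and 4.60% of their stretches of 90 bases with each other or with the pseudogene Slfn10-ps. None of the stretches in the last 500 bases, where 3′ tags fall, is shared.

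Slfn1, the growth-restraining founding member, was found in 3 of the 12 classes beyond a few UMIs. It was at 104 CPM in WT and 192 in KO in neutrophil-like cells, with a ratio of 1.86 (1.55 to 2.22). In T cell-like cells it was at 67.7 and 102, with a ratio of 1.51 (1.15 to 1.98). In monocyte-like cells it was at 19.96 and 115, on 29 and 156 UMIs, with a ratio of 5.74 (3.84 to 8.86). In the other classes it was at or below 3.94 CPM, and microglia-like cells had 6 UMIs in WT and 17 in KO. In WT the 3 levels are separated by their intervals. In KO the monocyte-like level (97.3 to 134) overlaps that of the T cell-like cells (85.4 to 121). An unnamed cluster led by genes of MHC class II (329 and 560 cells) was at 11.9 and 20.8 CPM for Slfn1, at 146 and 205 for Slfn2 and at 52.1 and 103 for Slfn8.

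Slfn4, the myeloid member, had more than 9 UMIs in a library in 2 of the 12 classes, the neutrophil-like and monocyte-like cells. In neutrophil-like cells it had 141 UMIs in 178 WT cells and 433 UMIs in 89 KO cells, or 53.9 and 372 CPM, with a ratio of 6.90 (5.69 to 8.40). A Slfn4 UMI was found in 42.7% of the WT and 91.0% of the KO neutrophil-like cells. Among the cells with a UMI, the median was 1 in WT and 5 in KO. The highest cell had 10 in WT and 17 in KO.

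In monocyte-like cells Slfn4 had 3 UMIs in WT, all in 1 of 125 cells, and 130 UMIs in 41 of 136 KO cells. The levels were 2.06 and 95.5 CPM, with a ratio of 46.3 with a wide interval (15.5 to 227). Of the monocyte-like cells, 64.8% in WT and 63.2% in KO were mixed. Too few were left without the mixed cells to give a ratio for any member. T cell-like and B cell-like cells had 0 UMIs in both libraries, which in T cell-like cells allows up to 2.09 CPM in WT and 2.26 in KO. Microglia-like cells had 1 and 9 UMIs.

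Marker levels within both classes differed between the libraries. In monocyte-like cells Ly6c2, a marker of classical monocytes, was at 367 CPM in WT and 1687 in KO, while Fn1 and Vcan, matrix protein genes also used as markers of these monocytes, were not higher in KO. Fn1 was at 452 and 231, and Vcan at 50.2 and 39.7, with a ratio whose interval (0.545 to 1.14) includes 1. Of the other monocyte markers, Plac8 (ratio 2.33), Chil3 (2.12), Ccr2 (1.65), F10 (1.63) and Gpr141 (1.24) were higher in KO. Spn (0.762), Itgal (0.711) and Ace (0.699) were lower, and the interval of Treml4 (0.763 to 1.23) includes 1. Ly6c2 was also higher in neutrophil-like cells, at 156 and 553. In neutrophil-like cells Camp, a granule gene of immature neutrophils, was at 2711 and 4935, and Csf3r, a receptor gene, at 790 and 363. Of the other neutrophil markers, Ly6g (ratio 2.52), Ltf (2.01), Lcn2 (1.75), Ngp (1.74) and Stfa2l1 (1.63) were higher in KO. So were S100a8 (1.47), Mmp8 (1.44), S100a9 (1.41) and Retnlg (1.30). Cxcr2 (0.818) and Il1r2 (0.542) were lower, and the interval of Mmp9 (0.968 to 1.19) includes 1. Monocyte-like cells were split by their UMIs of some of these markers. Of the genes used, Ly6c2, Ccr2, Chil3, Spn and Ace themselves differed between the libraries. The sets therefore need not hold like cells in WT and KO. Those with more UMIs of Ly6c2, Ccr2 and Chil3 (27 in WT and 57 in KO) had 3 and 90 Slfn4 UMIs, with a ratio of 19.0 (6.30 to 93.9). Those with as many or more UMIs of Treml4, Spn and Ace (98 and 79 cells) had 0 and 40 Slfn4 UMIs, at least 20.4-fold higher in KO against a floor of 3 counts, with a counting interval of the ratio that begins at 15.8. Slfn1 had 22 and 86 UMIs in the first set and 7 and 70 in the second.

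Neutrophil RNA was looked at in the same way. The monocyte-like cells with no UMI of 10 neutrophil markers (103 and 111 cells) had 3 and 79 Slfn4 UMIs, with a ratio of 26.2 (8.66 to 130). In the neutrophil-like cells that were not mixed Slfn4 was at 78.7 CPM in WT, against 460 in KO, with a ratio of 5.85. The part of the differing marker levels in this ratio was not tested.

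Cells with UMIs of several members were counted next. In microglia-like cells 51.4% had no member UMI in WT and 17.5% in KO. Endothelial-like cells with UMIs of 2 members made up 29.0% in WT and 50.1% in KO, and 615 and 1173 of the cells had both Slfn2 and Slfn5. Of WT microglia-like cells with a Slfn2 UMI, 23.4% also had a Slfn5 UMI, against 6.21% of those without. In KO these shares were 42.4% and 21.8%. Cells with a Slfn2 UMI had median depths of 11348 and 8135 UMIs, against 7540 and 5570 in those without, and the part of depth in these shares was not tested.

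The members were next read beside other interferon-induced genes within microglia-like cells. Cells thinned to 1000 UMIs were put in ranges by their UMIs of the type I interferon-induced list, which holds no Schlafen gene. The ranges are no cell types, and neighbouring ranges differ by 1 UMI. Of the WT cells 48.1% had 0 such UMIs and 3.49% had 4 or more, against 10.4% and 28.7% of the KO cells. Slfn2 per 10000 UMIs was 0.339 in WT and 1.08 in KO among cells with 0, and 0.635 and 1.58 among cells with 2 to 3. Among cells with 4 or more it was 1.48 (0.874 to 2.33) in WT and 1.76 (1.53 to 2.01) in KO, and the intervals overlap. Over the ranges of 0, 1, 2 to 3 and 4 or more, Slfn8 was at 0.392, 0.370, 0.515 and 1.31 in WT. In KO it was at 0.960, 1.00, 1.09 and 1.21. Slfn5 was at 0.0475 and 0.445 in the range of 0, and at 1.56 (0.938 to 2.43) and 0.869 (0.709 to 1.05) in the range of 4 or more.

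**Figure D3:**
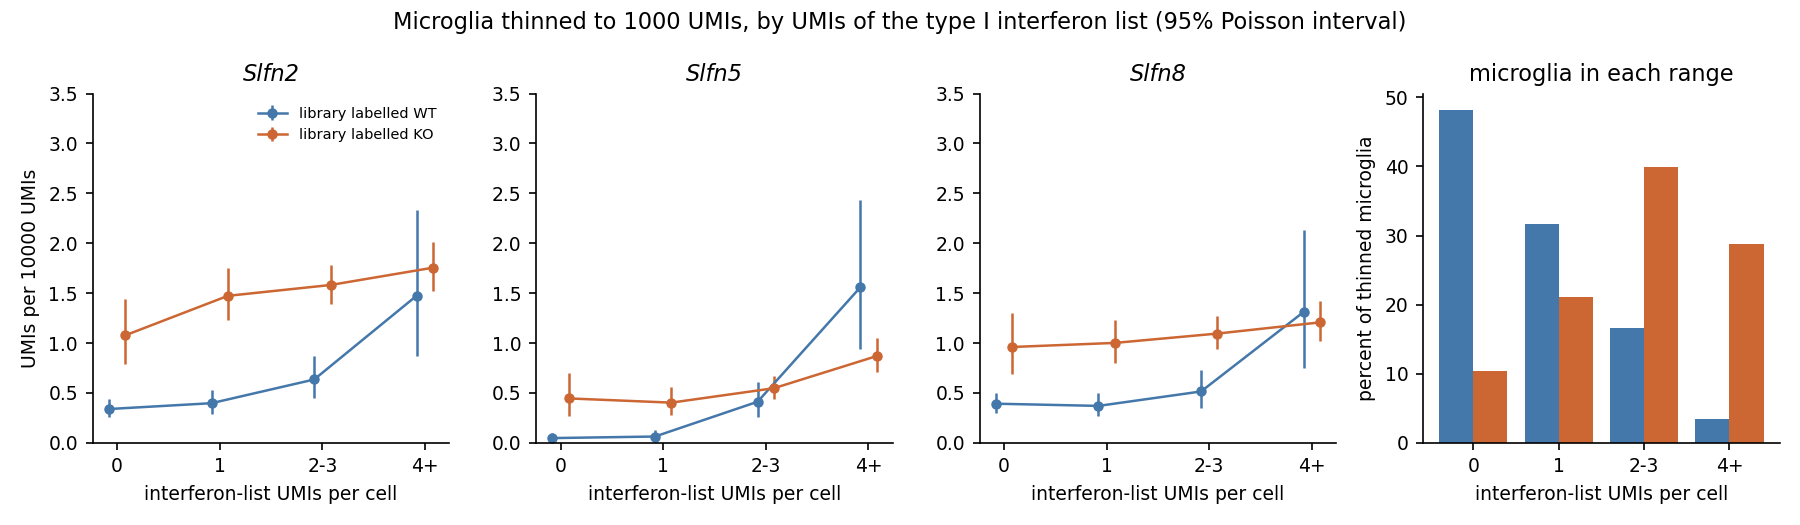
Slfn2, Slfn5 and Slfn8 UMIs per 10000 (linear axis, with 95% counting intervals) in thinned microglia-like cells by their UMIs of the type I interferon-induced list, and the percent of cells in each range (bars, from 0). KO cells lie above WT cells in the range of 0 UMIs for all 3 genes, and the intervals overlap in the range of 4 or more.

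The other genes of the pathway moved as follows in microglia-like cells. Of the 26 type I interferon-induced genes measured, 23 were higher in KO and 0 lower, with a median log2 ratio of CPM plus 10 of 1.09, where the members had 1.03. Rtp4, a chaperone of receptors induced by interferon, was at 20.4 and 130 CPM and Ifi27l2a at 123 and 577, while Oas3 (0.66 and 1.72) and Ifi44 (0.96 and 2.92) were at the low end. Of the 14 genes of the interferon receptors and JAK-STAT signalling, 5 were higher and 0 lower, with a median of 0.12. Usp18, a brake on the receptor, was at 9.63 and 35.4 CPM. The receptor subunit Ifngr1 was at 447 and 389 and the kinase Jak1 at 283 and 263, which does not meet the fold rule. Of 13 interferon gamma-induced genes 5 were higher and 0 lower, among them Irgm1, a GTPase, at 25.5 and 50.4 and the chemokine gene Cxcl9 at 0.98 and 6.97. Ciita (0.40 and 0.29) and Gbp7 (52.0 and 54.1) lay at the other end of that list.

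The same type I list was higher for 26 of 26 genes in monocyte-like cells (median log2 1.76), 26 of 26 in neutrophil-like cells (1.57), 24 of 25 in endothelial-like cells (1.18), 24 of 26 in T cell-like cells (0.86) and 24 of 26 in CNS-associated macrophage-like cells (0.76). The members' medians in these classes were 1.66, 1.00, 0.40, 0.62 and 0.61. By this measure the members' median lay below that of the list in each of these 5 classes. Of the 4 members measured in endothelial-like cells, Slfn2 had a log2 ratio of 1.47, Slfn5 0.49, Slfn8 0.30 and Slfn9 0.23. Slfn8 (4.46 CPM in WT and 7.79 in KO) and Slfn9 (1.37 and 3.30) had low levels there. Their log2 ratios are therefore held down by the constant added to the CPM (the pseudocount). With a pseudocount of 1 CPM they were 0.69 for Slfn8 and 0.86 for Slfn9. The order of Slfn5, Slfn8 and Slfn9 and the members' median in endothelial-like cells thus depend on the pseudocount.

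Genes tied to what Slfn2 is known for were read from lists as well. Of 5 genes of tRNA cleavage and its control, 0 met the fold rule in microglia-like cells. Ang, the ribonuclease that cuts tRNAs, was at 162 CPM in WT and 189 in KO, its inhibitor Rnh1 at 92.0 and 95.4, and the tRNA methyltransferase genes Nsun2 at 25.9 and 25.7 and Trdmt1 at 6.41 and 5.96. Of 10 genes of T cell quiescence and recirculation, 8 were lower in KO T cell-like cells and 0 higher, with a median log2 ratio of -0.55, where 11.4% of all genes measured were lower. S1pr1, the receptor for exit from tissue, was at 161 and 64.9 CPM, while Btg1 (740 and 741) and Tsc1 (22.3 and 21.9) lay at the other end. Markers of microglia stood at 11.5% and 21.1% of their microglial level in these cells, and markers of endothelium at 11.7% and 7.22% of their endothelial level. S1pr1 was at 612 and 502 CPM in endothelial-like cells. The part of either RNA in the lower values was not tested. Of the cell cycle genes, 0 of 14 met the fold rule in microglia-like cells and 6 of 11 were lower in T cell-like cells. In microglia-like cells the cyclin gene Ccnd3 was at 754 and 607 CPM and the replication gene Pcna at 68.3 and 56.8, and at the other end were Ccnd1 (88.3 and 104) and Rrm2 (0.28 and 0.48).

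Outside the leukocytes and endothelium many of the members' levels lay near what carried RNA would give. In astrocyte-like cells Slfn5 was at 38.9 CPM in WT and 80.8 in KO, where carried RNA would give 38.9 and 85.3, and Slfn8 at 17.3 and 38.1, where it would give 12.2 and 37.8. Slfn2 was at 29.0 and 87.9, where it would give 18.2 and 81.1. Without mixed cells the Slfn2 ratio in astrocyte-like cells was 1.30 (0.784 to 2.19). In fibroblast-like cells it was 0.984 (0.429 to 2.35) without such cells, against 23.6 and 62.7 CPM with them. Choroid plexus-like cells had Slfn5 at 19.3 and 20.9 CPM, with 17.7 and 24.2 for carried RNA. The part of carried RNA in the differences between the libraries was not tested in these classes.

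Mural-like cells, the pericytes and smooth muscle of vessels, lay above the carried level for Slfn5. Their level was 40.7 CPM in WT and 64.9 in KO, where carried RNA would give 11.1 and 28.3. The ratio was 1.59, and 1.47 without mixed cells. T cell-like cells lay above the carried level for Slfn2 in both libraries, while their Slfn5 level of 41.9 CPM in WT was near the 41.4 that carried RNA would give, and 75.5 in KO stood against 48.6. Without mixed cells T cell-like Slfn5 was at 15.8 and 43.6 CPM on 15 and 21 UMIs.

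**Figure D4:**
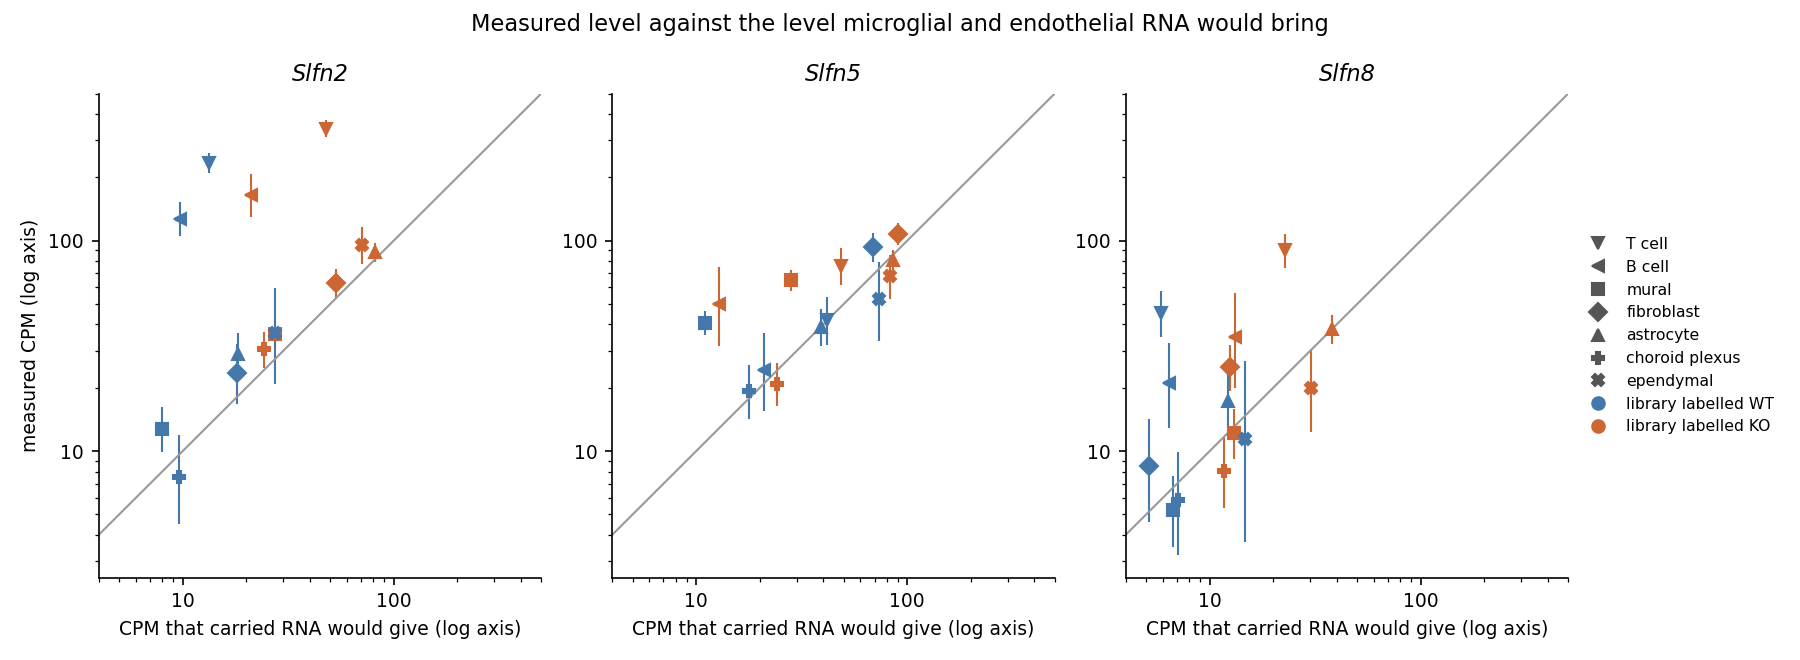
Measured level of Slfn2, Slfn5 and Slfn8 (CPM, log axis) against the level that carried microglial and endothelial RNA would give (CPM, log axis), with bars for the 95% counting interval and a line of equality. Astrocyte-like cells lie on or near the line for Slfn5, while T cell-like and B cell-like cells lie above it for Slfn2 and mural-like cells above it for Slfn5.

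The genes around the cluster served as a comparison by position. Within 500 kb of the members, 23 other genes were measured in microglia-like cells. Of these, 0 were higher in KO (1.09% of all genes) and 2 lower (1.22%), with a median log2 ratio of -0.02. The lower ones were the chemokine genes Ccl3, at 1044 CPM in WT and 594 in KO, and Ccl4, at 1888 and 1216. In endothelial-like cells 0 of 22 were higher and the same 2 were lower, with a median of 0.02. The gene Gm20234 overlaps Slfn2 and Slfn5os is antisense to Slfn5, and whether the counting used strand is not given in the sources used here.

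**Figure D5:**
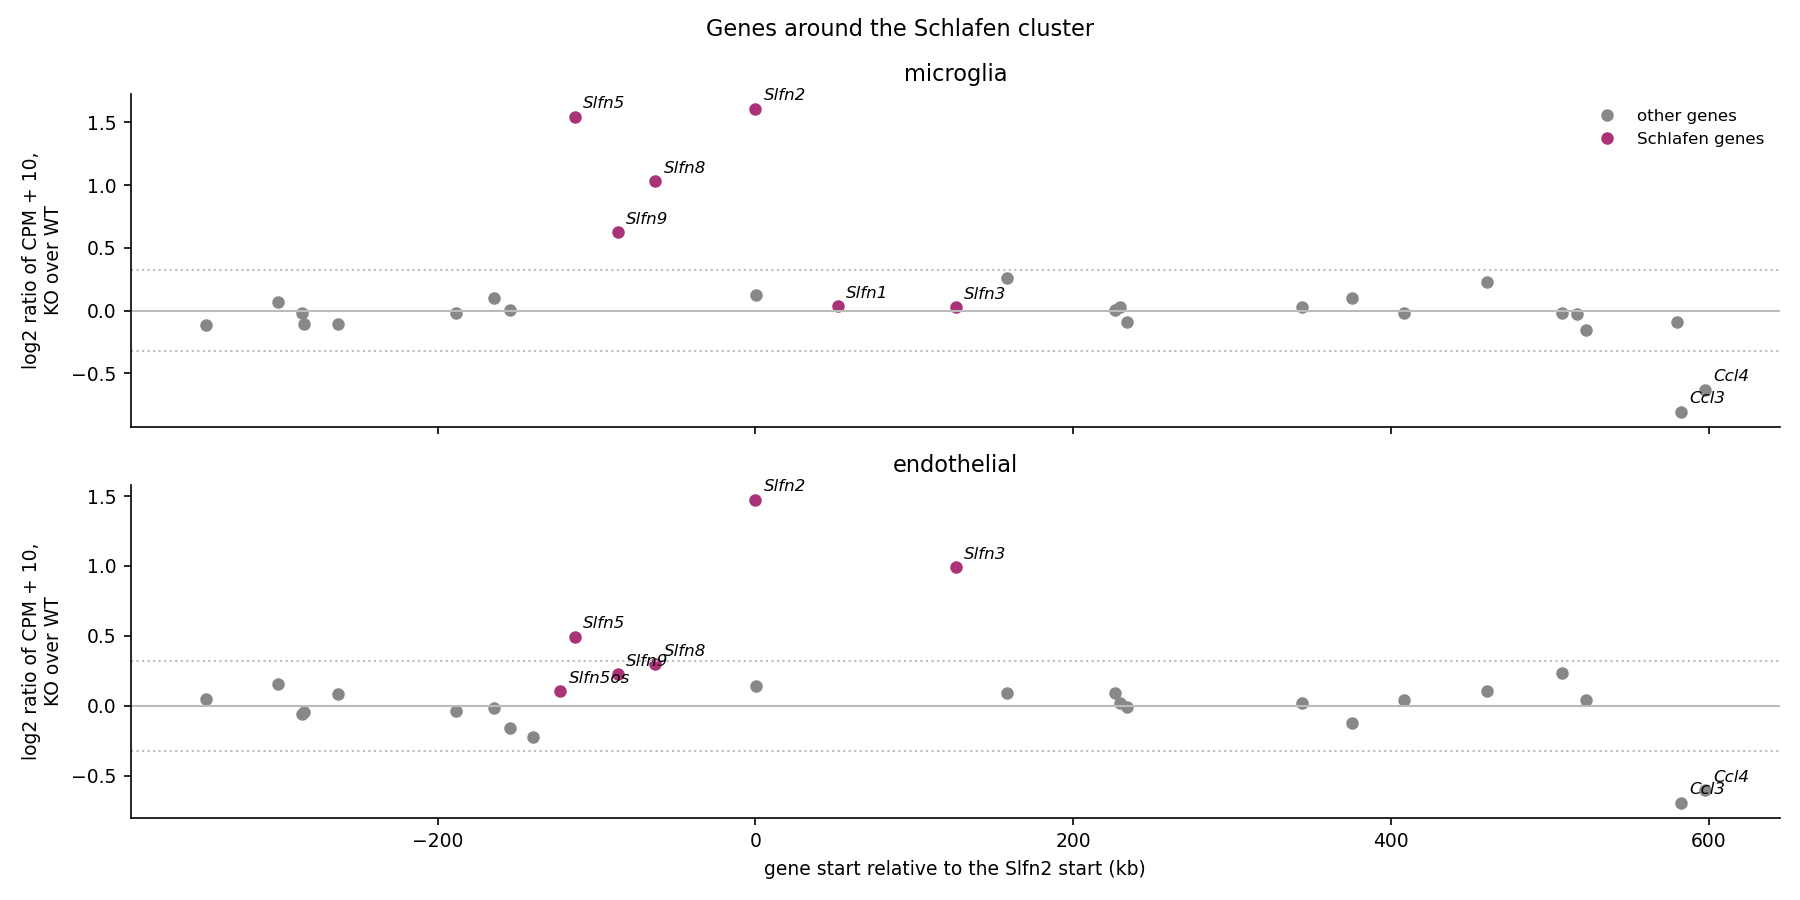
Log2 ratio of KO to WT of CPM plus 10 against distance along chromosome 11 from the Slfn2 start (kb), for the Schlafen genes and their measured neighbours in microglia-like (upper panel) and endothelial-like cells (lower panel), with dotted lines at the fold rule of 0.32 either way. Slfn2 stands above all its neighbours in both classes, and the median of the neighbours is -0.02 in microglia-like and 0.02 in endothelial-like cells.

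Of the other genes named Slfn, Slfn3 was the only one with more than 110 UMIs over both libraries. It was at 15.7 CPM in WT and 41.1 in KO in endothelial-like cells, with a ratio of 2.62 (2.29 to 2.999), and at 0.50 and 0.72 in microglia-like cells. Slfn5os had 44 and 66 UMIs, Slfn14 had 10 and 5, and Slfnl1 had 5 and 2 in all kept cells.

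The genes whose levels followed each member most closely were found by Pearson's r of log2(CPM + 10) over 24 values (12 classes in 2 libraries) among 13810 genes. These are descriptions, since the points share libraries and depth. Closest to Slfn2 were Tap1 (0.899), Sp110 (0.893) and Sh3bgrl3 (0.889), and closest to Slfn5 were Ifih1 (0.877), Oasl2 (0.857) and Usp18 (0.856). For Slfn8 they were Epsti1 (0.922), Trim30d (0.913) and Sh3bp1 (0.905), and for Slfn9 Phf11b (0.845), BC147527 (0.829) and Oas1a (0.825). For Slfn1 they were Atp8b4 (0.951), Oas3 (0.913) and Pstpip1 (0.909), and for Slfn4 Fpr2 (0.912), Cd177 (0.907) and Pira2 (0.904). Among the members, Slfn8 and Slfn9 had an r of 0.832 and Slfn5 and Slfn8 one of 0.098.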

How the data were processed

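Single brain cells were profiled with 10x Chromium 3′ v3.1 in 2 libraries of 1 group each. The authors deposited raw UMI counts per gene and cell barcode, with Cell Ranger 7.0.1 named per the file headers, and the submitters' processing notes also name STAR, Seurat 3.1.1 and the build GRCm38/mm10. Whether introns were counted is not given in the sources used here. Cells with at least 300 genes and 500 UMIs and at most 10% mitochondrial UMIs were kept, and called doublets removed per library.

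Cells of both libraries were clustered together (scanpy 1.11.5, 2000 variable genes, 30 components, 15 neighbours, Leiden resolution 1) without Schlafen, interferon-list, Cd200r1, mitochondrial or sex-linked genes, and clusters were named from at least 3 markers. UMIs were summed per class and library and divided by the class total (CPM). With 1 library per group no test was possible, so a fold rule replaced it. Levels carry exact Poisson, ratios exact conditional binomial and shares Clopper-Pearson intervals of 95%, and a count of 0 allows up to 3 counts. UMIs come from 3′ tags, so CPM is not divided by length.

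The members and all lists were chosen with earlier results of these data known. Named were all members, other Slfn genes, Cd200r1, up to 2 genes at each end of each list and the 3 genes most like each member, except some that are not reported here. The carried level is the median share of a source class's markers found in a class, times the member's level in that source, summed over microglia and endothelium. It, the splits of monocyte-like cells and leaving out shared barcodes were chosen after seeing the data. So were the genes Ly6c2, Fn1, Vcan, Camp and Csf3r and the other single monocyte and neutrophil markers. The scripts were tested on simulated data.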

Additional observations from a re-analysis of the deposited data

How the results depend on the processing

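No paired analysis was possible because each group has 1 library, and for the same reason no replicate could be left out. In microglia-like cells the log2 ratio of CPM plus the pseudocount stayed above the fold rule for Slfn2 (1.12 to 1.79), Slfn5 (0.81 to 1.98) and Slfn8 (0.69 to 1.17) under the 15 alternatives run, which covered the pseudocount, the filters on genes and cells, doublets, resolution, mixed cells, shared barcodes, thinning, scaling and the mean over cells. For Slfn9 (0.19 to 1.36) 1 alternative fell below it. No member was called lower in any class or alternative. The count of members higher in KO moved by over 1.5 times in these cases. With a pseudocount of 1 CPM it was 4 in endothelial-like and 2 in choroid plexus-like cells. With a pseudocount of 50 CPM, or with a minimum of 50 UMIs, it was 1 in B cell-like and 1 in ependymal-like cells. In choroid plexus-like cells it was 3 with no filter on cells or with doublets kept, and 2 at resolution 2, with the mean over cells, or without mitochondrial, ribosomal, haemoglobin and Ttr UMIs. Without mixed cells it was 1 in fibroblast-like and 1 in astrocyte-like cells, and the log2 ratio turned to -0.013 for Slfn2 in fibroblast-like cells and to -0.060 for Slfn8 in astrocyte-like cells. Thinned to 1000 UMIs it was 3 in monocyte-like and neutrophil-like cells and 1 in B cell-like, fibroblast-like and ependymal-like cells, where fewer UMIs are left to measure. Otherwise the cause was not tested. Fewer than 50 cells were left for fibroblast-like cells under the stricter filter and for monocyte-like, B cell-like and ependymal-like cells without mixed cells. In the alternative centred on the median log2 ratio, that median was -0.11 in neutrophil-like and choroid plexus-like cells and nearer 0 in the other classes.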
